A study of Mus musculus with 42 samples.

Results

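The regions described are stretches of the mouse genome at which β-catenin peaks were found in all 3 libraries from cells lacking Cdx1, Cdx2 and Cdx4 (CdxKO) and in none of the 3 wild-type (WT) libraries. They were selected on these measured calls: the 20000 best peaks of each of the 9 β-catenin lists, ranked by the peak caller's q-value on chromosomes 1 to 19, X and Y, were merged where they overlapped by at least 1 bp, which gave 96109 regions. Of these, 240 met the rule and are called gained regions, which is 0.25% of all merged regions. For reference, 377 regions were called in 3 of 3 WT lists and 0 of 3 CdxKO lists (lost regions), and 3626 were called in all 6. Lists of the same genotype overlapped only in part. The regions called by both of 2 lists made up 20.14% to 23.58% of those called by either in CdxKO. This overlap was 18.65% to 22.03% in WT and 27.13% to 32.19% in T/BraKO. All 3 CdxKO lists called 5472 regions, of 19566 to 19690 called by each. How far the number of lists calling a region reflects this low overlap was not tested.

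The cells were differentiated for 72 h from mouse embryonic stem cells of the HM1 line (129 strain), and all groups received FGF and LGK974, a blocker of WNT ligand secretion. The labels call all of them epiblast-like, and the study calls those given CHIR99021 for the last day caudal epiblast-like cells. ChIP-seq was performed for β-catenin, SOX2 and LEF1 in WT, T/Bra-/- (T/BraKO) and Cdx1,2,4 triple mutant (CdxKO) cells given CHIR99021 (CHIR) for that day, a GSK3 inhibitor that stabilises β-catenin, and for SOX2 also in WT cells without CHIR (noCHIR), with 3 biological replicates in each of the 10 groups. The sources used here do not say how many clones stand behind each mutant line, and peak lists hold no measure of the deleted genes, so the genotypes could not be checked. The antibodies were checked by motif content outside the gained regions. Of the 20000 best SOX2 peaks, 14.9% to 32.7% held a SOX motif, against 8.26% to 9.14% of LEF1 and 10.96% to 13.51% of β-catenin peaks. By group the share of SOX2 peaks was 14.93% to 20.98% in WT with CHIR and 26.13% to 32.69% in WT noCHIR. It was 20.12% to 25.39% in T/BraKO and 22.84% to 26.48% in CdxKO. WT replicates 1 and 2 with CHIR were lowest. Whether this bears on their SOX2 calls at gained regions was not tested. Of β-catenin peaks, 26.5% to 36.6% held a TCF/LEF motif, against 9.46% to 14.2% of SOX2 peaks. LEF1 peaks held the TCF/LEF motif at 15.3% to 22.1%, below β-catenin and not far above SOX2, and whether this bears on the low number of LEF1 calls was not tested. By genotype this range was 20.9% to 22.1% in CdxKO, 16.4% to 21.1% in WT and 15.3% to 17.8% in T/BraKO.

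β-catenin does not bind DNA itself. When WNT signalling, or CHIR in its place, protects it from degradation, it enters the nucleus and is held at enhancers and promoters by TCF/LEF proteins, of which LEF1 is one, and it converts them from repressors to activators. CDX proteins are homeodomain factors of the posterior embryo that act with WNT to switch on trunk Hox genes, T/BRA is the T-box factor of the primitive streak and SOX2 is the HMG-box factor of epiblast and neural progenitors. AP-1 is the family of JUN and FOS dimers that bind TGANTCA and respond to growth factors and stress.

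Windows of 201 bp centred on the CdxKO summit are shown for 8 of the gained regions, to let the motif content be seen directly. The first 5 are the best-ranked regions that hold a TCF/LEF or SOX motif, and the last 3 are the best-ranked further regions with an AP-1 motif, a choice made after the AP-1 share below had been seen. All are plus-strand sequence of GRCm38 (mm10), named by the nearest protein-coding gene, and capitals mark TCF/LEF (CTTTGAA or CTTTGAT), SOX (CCATTGT or CCTTTGT) and AP-1 (TGANTCA) matches on either strand. They lie at chr5:83351776-83351976 (Tecrl), chrX:22099401-22099601 (Gm28269), chr14:23446486-23446686 (Kcnma1), chr9:49438631-49438831 (Ankk1), chrX:24011611-24011811 (Gm4985), chr2:52471823-52472023 (Arl5a), chr7:119197129-119197329 (Gpr139) and chr3:107062809-107063009 (Kcna3).
Tecrl: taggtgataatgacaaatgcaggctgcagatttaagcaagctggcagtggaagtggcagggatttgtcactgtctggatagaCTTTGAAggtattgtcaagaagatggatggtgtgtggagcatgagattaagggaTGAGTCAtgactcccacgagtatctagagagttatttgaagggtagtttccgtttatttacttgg
Gm28269: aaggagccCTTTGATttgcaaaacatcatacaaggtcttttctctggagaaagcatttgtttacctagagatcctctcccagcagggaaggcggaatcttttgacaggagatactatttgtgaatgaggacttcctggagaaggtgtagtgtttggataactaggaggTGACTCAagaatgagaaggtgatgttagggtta
Kcnma1: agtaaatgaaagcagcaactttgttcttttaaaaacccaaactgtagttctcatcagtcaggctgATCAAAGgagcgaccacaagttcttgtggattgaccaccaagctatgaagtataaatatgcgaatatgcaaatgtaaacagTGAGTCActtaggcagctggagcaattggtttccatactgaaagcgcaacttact
Ankk1: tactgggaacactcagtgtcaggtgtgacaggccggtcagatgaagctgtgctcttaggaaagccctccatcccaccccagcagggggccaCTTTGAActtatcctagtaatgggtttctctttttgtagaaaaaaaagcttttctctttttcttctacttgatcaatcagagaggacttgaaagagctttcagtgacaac
Gm4985: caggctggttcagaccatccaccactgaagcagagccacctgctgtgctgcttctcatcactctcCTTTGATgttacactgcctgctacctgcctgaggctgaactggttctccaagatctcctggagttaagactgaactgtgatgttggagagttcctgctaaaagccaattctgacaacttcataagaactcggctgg
Arl5a: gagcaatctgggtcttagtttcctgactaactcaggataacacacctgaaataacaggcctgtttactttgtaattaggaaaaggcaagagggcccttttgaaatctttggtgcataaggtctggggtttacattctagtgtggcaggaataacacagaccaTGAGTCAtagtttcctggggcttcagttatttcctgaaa
Gpr139: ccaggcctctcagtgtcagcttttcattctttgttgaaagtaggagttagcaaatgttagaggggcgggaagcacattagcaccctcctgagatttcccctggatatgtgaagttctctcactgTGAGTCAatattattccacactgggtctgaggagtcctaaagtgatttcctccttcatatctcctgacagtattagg
Kcna3: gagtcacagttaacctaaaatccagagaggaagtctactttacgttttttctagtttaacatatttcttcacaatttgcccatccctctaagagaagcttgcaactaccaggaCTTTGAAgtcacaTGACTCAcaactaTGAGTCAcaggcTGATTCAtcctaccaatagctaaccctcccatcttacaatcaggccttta
Of these 8 windows, those at Tecrl, Gm28269, Kcnma1 and Kcna3 hold both a TCF/LEF and an AP-1 motif, and the Kcna3 window holds 3 AP-1 matches. None of them holds a SOX motif by the letters searched.

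The calls that chose the regions are given first as a description, with no test. In the CdxKO β-catenin lists the median fold enrichment over control at the 240 regions was 7.42, 6.77 and 7.75 in replicates 1 to 3, with a range of 4.37 to 23.2. The gained regions were of middle rank: 74 of them stood among the 10000 best peaks in all 3 CdxKO lists, and 87 had a rank over 15000 in at least 1. WT cells were not without signal there. In the full, uncut WT lists, 41 gained regions had no peak in any list, 99 had a peak in 1, 77 in 2 and 23 in all 3, with median folds of 4.00 (79 regions), 4.52 (102 regions) and 5.26 (141 regions) in WT replicates 1, 2 and 3. The cut fell at different folds in different lists: the peak of rank 20000 had a fold of 5.68, 5.06 and 5.61 in CdxKO replicates 1 to 3 and of 4.40, 5.65 and 8.08 in WT replicates 1 to 3, the last from a list of 469083 peaks. A WT replicate 3 peak could therefore exceed a CdxKO peak in fold and still count as absent, and at 51 gained regions the highest WT fold was above the lowest CdxKO fold. The highest WT fold at any gained region was 7.61.

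Some regions lay close to the cut. The region nearest Gadl1 (chr9:115665554-115665858) entered with a worst CdxKO rank of 19998, and that nearest Car2 (chr3:15056769-15057457) entered because its best WT peak ranked 20036. Just outside, a region nearest Sdk1 was left out by a WT peak of rank 19895, and one nearest Cux1 by a CdxKO peak of rank 20084. In all, 45 gained regions had a WT peak ranked past 20000 but within the best 25000.

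In β-catenin lists of T/BraKO cells, which took no part in choosing WT absence or CdxKO presence, 129, 111 and 112 of the 240 gained regions were called among the 20000 best peaks of replicates 1 to 3, or 53.75%, 46.25% and 46.7% (mean 48.9% ± 4.22, SD, n = 3). The share over all merged regions was 20.3% to 20.4% in the same libraries, and over the regions called in all 6 WT and CdxKO lists 84.4% to 88.9%. At lost regions it was 64.2% to 78.0%, and at regions called in 3 of 3 CdxKO and 1 of 3 WT lists 54.7% to 62.1%. The gained regions thus divided in their T/BraKO calls. No T/BraKO list called 65 of them (27.1%, against 59.5% of all merged regions), 52 were called by 1 list, 69 by 2 and 54 by all 3 (22.5%, against 7.43% of all merged regions). Of the lost regions, 10.1% were called by no T/BraKO list and 52.0% by all 3. The lists of all 9 β-catenin libraries fixed the merged regions, so these shares carry no test. In the 10000 best peaks the T/BraKO mean was 30.7% and in the full lists 66.1%.

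The best-ranked regions called in 3 of 3 T/BraKO lists were nearest Kcnma1, Arl5a, Enc1, 4933407L21Rik and Kcna3. At Kcnma1, which encodes the pore subunit of the BK potassium channel, the region (chr14:23446406-23446739) lay in an intron 203603 bp downstream of the start site. Its fold enrichment was 16.1, 11.7 and 16.7 in CdxKO, 12.5, 6.54 and 8.84 in T/BraKO, and 3.40 and 2.85 in WT replicates 1 and 2, with no peak in WT replicate 3. The region was chosen on these calls, so the order of the genotypes is no finding. The Enc1 region (chr13:97432573-97433197), 191779 bp from the gene of an actin-binding kelch protein of the early nervous system, reached 10.9, 11.6 and 8.27 in CdxKO and 19.3, 7.90 and 7.62 in T/BraKO, with a single WT peak at 4.33. Kcna3, a voltage-gated potassium channel gene, had CdxKO folds of 6.45, 13.9 and 9.83 and T/BraKO folds of 7.44, 5.16 and 10.0 at a region 26740 bp downstream of its start, and WT folds of 4.19, 4.86 and 2.85. The Arl5a region (chr2:52471474-52472155) lay in an intron of Cacnb4, which encodes a calcium channel β subunit, and was the one with the strongest WT peak: 7.61 in WT replicate 3 at rank 24563, beside 14.0, 11.2 and 12.3 in CdxKO and 6.46, 6.74 and 8.11 in T/BraKO.

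The best-ranked regions with no T/BraKO call were nearest Tecrl, Scgb1b10, Gm21886, Gm4985 and Gpr139. The Tecrl region (chr5:83351714-83352036) was the best gained region by mean CdxKO rank. It lay 3319 bp inside the gene, which encodes an endoplasmic reticulum reductase best known from heart muscle, and its folds were 15.3, 12.7 and 15.8 in CdxKO, with no peak in the full list of any T/BraKO library and 1 WT peak at 5.23. Scgb1b10, a secretoglobin gene, had a region (chr7:31981893-31982095) 118844 bp upstream with folds of 9.60, 10.3 and 16.6 in CdxKO and no peak in any of the 6 other full lists. At Gpr139, an orphan receptor gene, the region (chr7:119197067-119197345) 12626 bp upstream reached 17.0, 7.32 and 12.4 in CdxKO, had no T/BraKO peak and had 1 WT peak at 6.33. The contrast with both other genotypes restates how these regions were chosen.

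**Figure D1:**
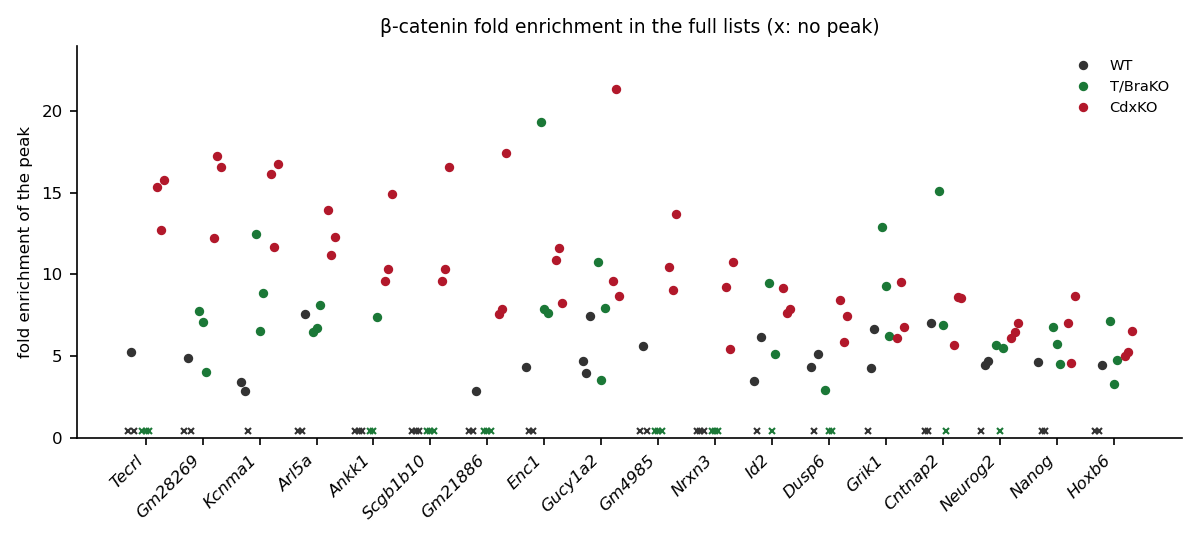
Fold enrichment (y axis) of the β-catenin peak in the full list of each library at the 10 best-ranked gained regions and at those nearest a gene of the 9 lists (x axis, nearest gene), for WT (black), T/BraKO (green) and CdxKO (red). Each point is 1 library and a cross near 0 marks a list with no peak: at Tecrl the 3 CdxKO points lie between 12.7 and 15.8 and every T/BraKO library has a cross.

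SOX2 calls at the gained regions were most frequent in the CdxKO libraries. Of the 240 regions, 65, 69 and 69 were called in the CdxKO SOX2 lists (27.1%, 28.75% and 28.75%), 37, 58 and 57 in T/BraKO (15.4%, 24.2% and 23.75%), 19, 22 and 41 in WT with CHIR (7.92%, 9.17% and 17.1%) and 45, 44 and 45 in WT without CHIR (18.75%, 18.3% and 18.75%). The 3 CdxKO values were above all 9 others. The difference between CdxKO and WT was 16.8 percentage points (28.2% ± 0.962 against 11.4% ± 4.97, SD, n = 3 each), with p = 0.1 in a two-sided exact permutation test over libraries, the smallest that 3 against 3 allows, and 0.14 after Benjamini-Hochberg adjustment over the 7 tests of SOX2 and LEF1 shares. Against the 6 other libraries given CHIR the difference was 11.9 points (p = 0.0357 by exact permutation, adjusted p = 0.125, n = 3 and 6), so no SOX2 test passed after adjustment.

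T/BraKO exceeded WT by 9.72 points with overlapping values (exact permutation p = 0.2, adjusted p = 0.233, n = 3 each). WT cells given CHIR were 7.22 points below WT cells without it, with no overlap (exact permutation p = 0.1, adjusted p = 0.14, n = 3 each). Whether SOX2, LEF1 and β-catenin were precipitated from the same cultures was not stated, so shared culture effects cannot be told apart from those of genotype.

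The WT SOX2 lists with CHIR also called fewer β-catenin regions outside the gained set, though not at the lost regions, where WT stood at 18.3% to 47.2% and CdxKO at 15.1% to 17.5%. Over all merged regions the share called was 4.62% to 8.86% in WT with CHIR and 8.90% to 9.71% in CdxKO, and at the regions called in all 6 β-catenin lists 32.7% to 56.8% and 57.7% to 58.9%. As a ratio to the share over all merged regions, the gained regions stood at 2.92, 2.96 and 3.23 in CdxKO, 2.06, 2.48 and 2.38 in T/BraKO, 1.63, 1.98 and 1.93 in WT with CHIR and 1.94, 1.97 and 2.28 in WT without CHIR. CdxKO remained highest on that scale. With the share at regions called in all 6 lists subtracted within each library, however, the difference between CdxKO and WT came to 0.801 points (exact permutation p = 1, n = 3 each), while as a log2 ratio to that share, a scale added after the data were seen, it was 0.89 (exact permutation p = 0.1, n = 3 each). WT replicate 3 was the highest of the 3 WT libraries with CHIR in all 4 sets of regions (gained, lost, called in all 6 and all merged), and without it the difference was 19.7 points.

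**Figure D2:**
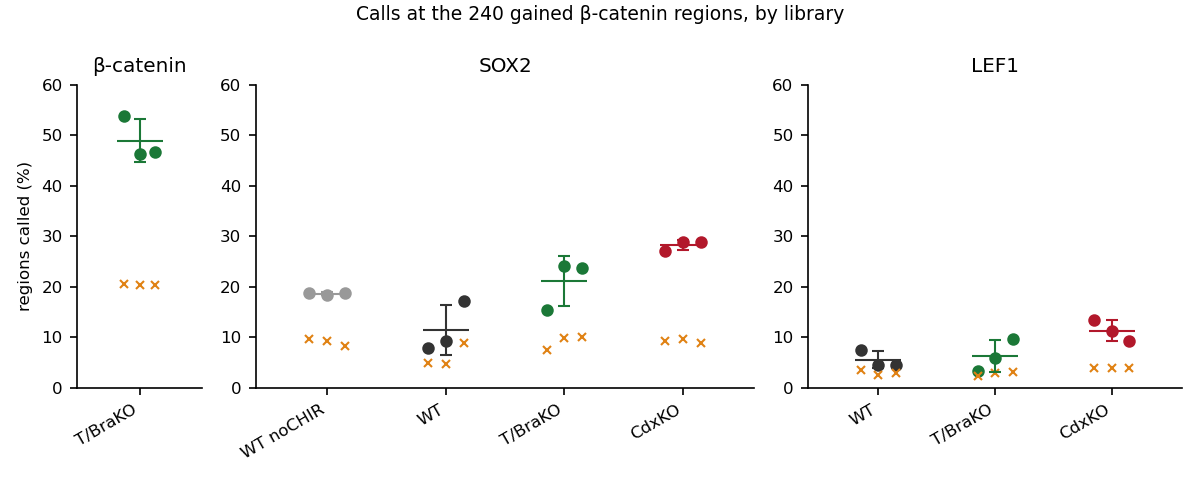
Percent of the 240 gained regions called among the 20000 best peaks (y axis) by each library of T/BraKO β-catenin, SOX2 and LEF1 (x axis, genotype; all with CHIR except WT noCHIR). Dots are libraries, bars the mean and SD of 3, and orange crosses the percent of all merged regions that the same library called: SOX2 in CdxKO lies between 27.1% and 28.75%, above the other 9 SOX2 libraries.

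By number of lists, SOX2 was called at 31 gained regions in 3 of 3 CdxKO lists (12.9%, against 4.71% of all merged regions and 42.4% of the regions called in all 6 β-catenin lists), at 28 in 2, at 54 in 1 and at 127 in none. At least 1 CdxKO list called SOX2 at 113 gained regions (47.08%), against 15.05% of all merged regions and 74.71% of the regions called in all 6. In 8 regions SOX2 was called in 3 of 3 CdxKO and 0 of 3 WT lists with CHIR (3.33%, against 0.546% of all merged regions and 2.56% of the regions called in all 6). The reverse pattern was found at 0 of the 240 (0.0458% of all merged regions). WT lists without CHIR called SOX2 in 3 of 3 at 28 gained regions (11.7%, against 5.34% of all merged regions and 30.7% of the regions called in all 6). Of these, 20 were called in 3 of 3 CdxKO lists as well (8.33% of the 240, against 3.15% and 26.6%), and 3 of the 20 had no WT call with CHIR (1.25%, against 0.223% and 0.662%).

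Among the best-ranked of the 8 were regions nearest Guca2a, Ctdspl, Snx19 and Lmna. The Guca2a region (chr4:119592581-119592787) lay in an intron of Foxj3, a forkhead factor gene, and held a SOX motif. It had SOX2 calls in 3 of 3 CdxKO, 2 of 3 T/BraKO, 0 of 3 WT and 2 of 3 noCHIR lists. Its β-catenin folds were 8.29, 7.75 and 7.78 in CdxKO and 5.64 and 3.43 in T/BraKO, with no peak in any full WT list. The Snx19 region (chr9:30597240-30597696), 170422 bp downstream of the start of a sorting nexin gene, was called for SOX2 in 3 of 3 noCHIR lists as well, and held a SOX, a CDX, an octamer and 2 TCF/LEF motifs. This window was masked as repeats over 91.5% of its length. The region lay close to the cut, with a best WT β-catenin rank of 20168. Its β-catenin folds were 5.69, 10.9 and 7.47 in CdxKO and 4.36 and 7.13 in WT replicates 1 and 3. Near Lmna, the lamin A and C gene, the region (chr3:88509924-88510539) 6882 bp upstream was called in 2 of 3 noCHIR lists and held none of the 13 motifs searched. Ctdspl, a phosphatase gene, had a region with no noCHIR call. At Ctdspl, Snx19 and Lmna SOX2 was called in 1 of 3 T/BraKO lists.

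LEF1 calls were few in number, though above the share over all merged regions in each library. They were made at 32, 27 and 22 of the 240 gained regions in CdxKO (13.3%, 11.25% and 9.17%), at 8, 14 and 23 in T/BraKO (3.33%, 5.83% and 9.58%) and at 18, 11 and 11 in WT (7.50%, 4.58% and 4.58%). All 3 CdxKO values were above the WT values, and the lowest was below the highest T/BraKO value. Over all merged regions LEF1 was called at 3.85% to 3.96% in CdxKO, 2.33% to 3.03% in T/BraKO and 2.56% to 3.57% in WT. As a ratio to these shares, the gained regions stood at 2.38 to 3.39 in CdxKO and 1.54 to 2.10 in WT. In T/BraKO the ratio was 1.43 to 3.17, which overlapped with CdxKO. The mean difference between CdxKO and WT was 5.69 points (11.25% ± 2.08 against 5.56% ± 1.68, SD, n = 3 each, exact permutation p = 0.1, adjusted p = 0.14), between CdxKO and the 6 other libraries 5.35 points (exact permutation p = 0.0238, adjusted p = 0.125, n = 3 and 6), and between T/BraKO and WT 0.694 points (exact permutation p = 0.8, n = 3 each). None passed after adjustment. The share of LEF1 calls at regions called in all 6 β-catenin lists was 44.6% to 45.9% in CdxKO and 30.8% to 40.0% in WT, and with that share subtracted the sign turned, to -3.21 points for CdxKO against WT and -6.81 points for CdxKO against the other 6. As a log2 ratio to that share, a scale added after the data were seen, the sign was kept, at 0.72 (exact permutation p = 0.1, n = 3 each) and 0.54 (exact permutation p = 0.143, n = 3 and 6).

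No gained region was called by LEF1 in 3 of 3 CdxKO lists, and 12 were called in 2 (5.00%, against 2.51% of all merged regions and 43.4% of the regions called in all 6 for at least 2 lists). The best-ranked 5 of these were nearest 4933407L21Rik, Pdlim4, Strbp, Foxk1 and Rassf3, and none of the 5 had a LEF1 call in WT or T/BraKO. The first held 2 TCF/LEF motifs and a SOX motif, and lay in an intron of its gene (chr1:85936741-85937384) with β-catenin folds of 7.35, 8.62 and 15.3 in CdxKO and 14.6, 11.5 and 8.84 in T/BraKO. Pdlim4, which encodes a PDZ and LIM protein of the actin cytoskeleton, had an intronic region (chr11:54055967-54056334) whose fold differed widely between CdxKO libraries, at 4.37, 7.67 and 20.6. Foxk1, a forkhead factor gene, was the single gene nearest to 2 gained regions. One (chr5:142410485-142410987) lay in its intron with LEF1 in 2 and SOX2 in 2 CdxKO lists and β-catenin in 3 of 3 T/BraKO lists, and the other (chr5:142313885-142314175), 87424 bp upstream, had an AP-1 motif, no SOX2 or LEF1 call and no peak in any other full β-catenin list. At 49 gained regions (20.4%) none of the 21 SOX2 and LEF1 lists made a call, against 3.36% of the regions called in all 6 β-catenin lists and 68.9% of all merged regions.

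Of the 13 motifs searched, none of which the rule used, AP-1 was the one whose share in the gained regions was well above that in both lost regions and regions called in all 6 lists. The AP-1 motif TGANTCA was found within 100 bp of the summit in 61 of 240 gained regions (25.4%, 95% Wilson interval 20.3% to 31.3%). It was found in 17 of 377 lost regions (4.51%, 2.83% to 7.10%), in 6.70% of the 3626 regions called in all 6 lists (5.93% to 7.56%) and in 7.67% of all merged regions. In windows moved by 1000 bp from the gained summits the share was 5.83%. The stricter form TGACTCA, whose reverse complement is TGAGTCA, made up most of this, at 50 of the 240 (20.8%) against 2.12% of lost regions, 5.16% of regions called in all 6 and 5.24% of all merged regions. The intervals cover counting error over regions only, and regions are not replicates.

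The AP-1 share was graded by how far WT cells shared the region. Among regions called in 3 of 3 CdxKO lists it was 25.4% with 0 WT lists, 13.4% of 554 with 1, 9.89% of 1052 with 2 and 6.70% of 3626 with 3. Windows were centred on the best-ranked CdxKO summit with 0 or 3 WT lists. With 1 or 2 they were centred on the best-ranked summit of any β-catenin list, and the effect of this was not tested. It was also highest in the best gained regions: 12 of 25 (48.0%) with a mean CdxKO rank up to 5000, 34 of 135 (25.2%) past 5000 and up to 10000 and 15 of 80 (18.75%) beyond. Regions called in all 6 lists held it at 6.66%, 7.03% and 5.56% in the same rank classes. Without rank classes the TCF/LEF share rose with WT lists, at 42.1%, 44.2%, 45.6% and 54.1% with 0, 1, 2 and 3. In the class past 5000 and up to 10000 it was 40.7%, 42.6%, 43.3% and 44.1%, and the AP-1 share 25.2%, 12.7%, 9.58% and 7.03%. Beyond rank 10000 the TCF/LEF share was 41.25%, 39.1%, 42.1% and 34.7%, and the AP-1 share 18.75%, 15.5%, 5.26% and 5.56%. The 4 best gained regions of all, nearest Tecrl, Gm28269, Kcnma1 and Arl5a, each held 1 AP-1 motif, as their windows above show.

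**Figure D3:**
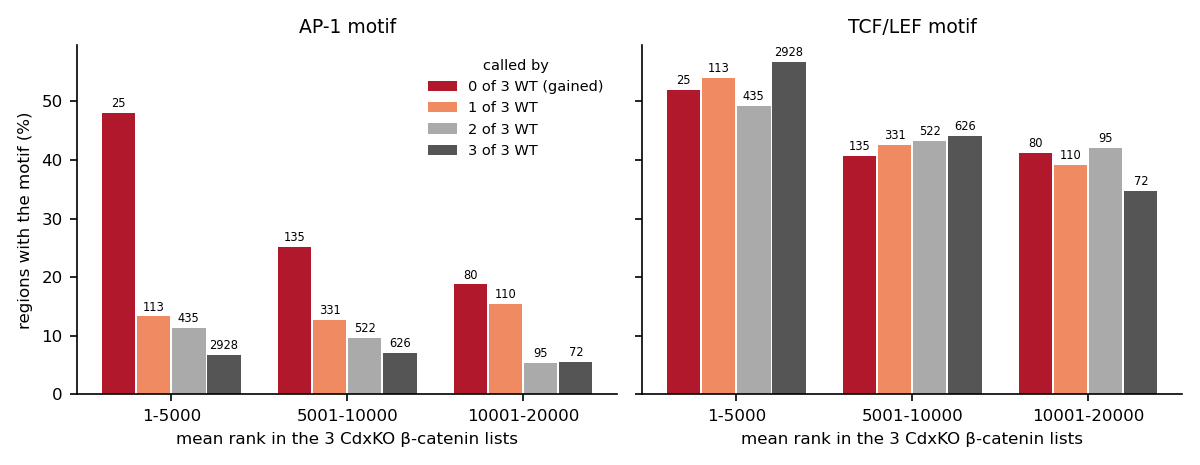
Percent of regions (y axis) with an AP-1 motif (left) or a TCF/LEF motif (right) within 100 bp of the summit, for regions called in 3 of 3 CdxKO β-catenin lists, split by the number of WT lists that called them (colours) and by mean CdxKO rank (x axis); numbers above the bars are regions. In the best class 48.0% of 25 gained regions and 6.66% of 2928 regions called by 3 of 3 WT lists hold the AP-1 motif.

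AP-1 motifs were not centred on the β-catenin summit. The median distance of the 69 AP-1 matches in the gained windows from the summit was 44 bp, and 11 of them (15.9%) lay within 20 bp. For the 120 TCF/LEF matches the median was 31 bp and 43 (35.8%) lay within 20 bp. The AP-1 and TCF/LEF motifs occurred together in 27 of the 240 windows, AP-1 and SOX in 9, and 105 windows held neither AP-1 nor TCF/LEF. These joint counts were not compared with other regions or with the single motif shares, and are not read as a pairing.

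Regions with and without T/BraKO calls both held AP-1 motifs. The share was 21.5% of the 65 gained regions with no T/BraKO call, 23.1% of 52 with 1, 26.1% of 69 with 2 and 31.5% of 54 with 3. Regions called in 3 of 3 T/BraKO and 0 of 3 of the same WT lists that were not gained in CdxKO numbered 508, and 10.8% of them (8.41% to 13.8%) held the AP-1 motif. With the 54 regions common to both sets kept, the share was 12.8% of 562. Both values were below the 25.4% of the gained regions, given with no test, since regions are not replicates.

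**Figure D4:**
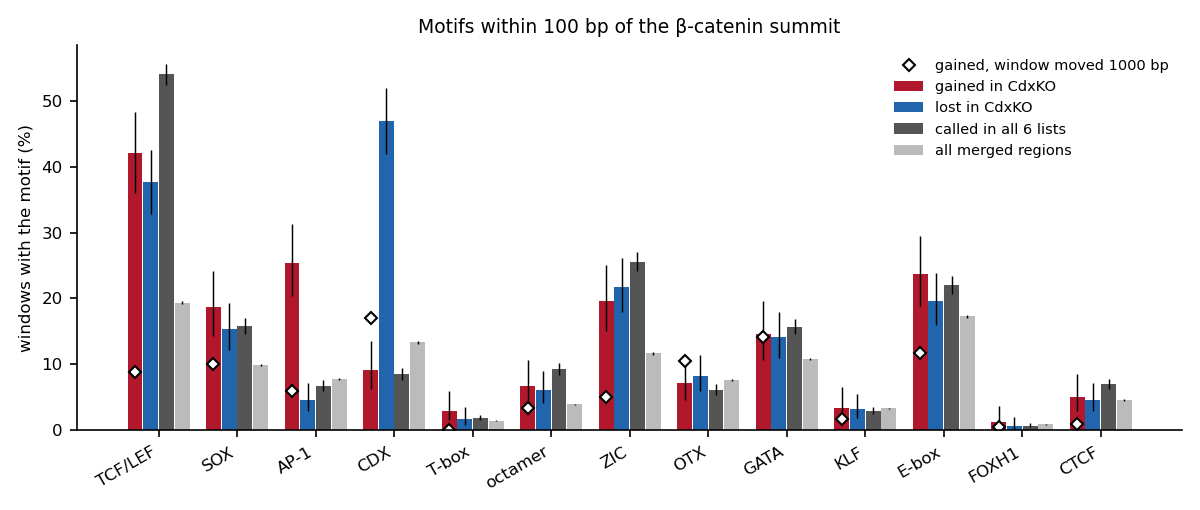
Percent of windows (y axis) holding each of 13 motifs (x axis) within 100 bp of the β-catenin summit in the 240 gained regions (red), 377 lost regions (blue), 3626 regions called in all 6 WT and CdxKO lists (dark grey) and 96109 merged regions (light grey), with 95% Wilson intervals. Diamonds give the gained windows moved by 1000 bp; AP-1 stands at 25.4% in gained windows and 4.51% in lost ones.

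TCF/LEF, the motif through which β-catenin is held on DNA, was found in 101 windows (42.1%, 36.0% to 48.4%), against 37.7% of lost regions, 54.1% of regions called in all 6, 19.4% of all merged regions and 8.75% of the moved windows, so its interval lay below the share of the regions called in all 6. SOX stood at 18.75% (14.3% to 24.2%), against 15.4%, 15.8% and 9.83%. CDX sites (CAATAAA or else CCATAAA or else TAATAAA or else TCATAAA) were held by 22 windows (9.17%), fewer than the 17.1% of the same windows moved by 1000 bp. Regions called in all 6 lists showed the same dip (8.44%, and 17.2% when moved), and the share was 13.3% of all merged and 46.9% of lost regions. The T-box site AGGTGTGA was held by 7 windows (2.92%), the octamer (ATGCAAAT or ATGCTAAT) by 16 (6.67%), the ZIC site CAGCAGG by 47 (19.6%) and the E-box CAGGTG by 57 (23.75%), each with an interval that held the share of the regions called in all 6 lists except ZIC, whose upper bound of 25.1% lay just under their 25.6%. The remaining letters searched were GGATTA for OTX (7.08%), AGATAA for GATA factors (14.6%), GGGTGTGG or GGGCGTGG for KLF (3.33%), AATCCACA for FOXH1 (1.25%) and the CTCF core AGGGGGC (5.00%).

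Within the gained regions SOX2 was called more often where a SOX motif was present, and LEF1 calls by TCF/LEF motif overlapped between libraries. In CdxKO, SOX2 lists called 37.8% to 46.7% of the 45 gained regions with a SOX motif and 24.6% of the 195 without in each library. At regions called in all 6 β-catenin lists the shares were 79.0% to 81.6% with and 53.6% to 54.7% without, in the same order. LEF1 lists called 11.9% to 16.8% of the 101 with a TCF/LEF motif and 3.60% to 12.9% of the 139 without. At regions called in all 6 β-catenin lists LEF1 did not overlap, with 54.3% to 55.5% and 32.9% to 35.9%. SOX2 was called at 13.9% to 18.8% of the gained regions with a TCF/LEF motif and at 36.0% to 37.4% of those without one. The same order held at regions called in all 6 β-catenin lists, with 49.9% to 53.0% and 66.0% to 67.2%. The 61 regions with an AP-1 motif had SOX2 calls at 19.7% to 24.6% in CdxKO and 3.28% to 9.84% in WT with CHIR, and T/BraKO β-catenin calls at 50.8% to 55.7%. For the 179 without one, these ranges were 27.9% to 31.8%, 9.50% to 19.6% and 43.6% to 53.1%.

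Whether AP-1 motifs were more frequent in CdxKO peaks beyond the gained regions was examined in lists that had no part in choosing them, a comparison made after the AP-1 share had been seen. With peaks at gained regions left out, 7.44%, 7.71% and 8.36% of the 20000 best SOX2 peaks held the motif in CdxKO, 6.99%, 7.29% and 7.57% in T/BraKO, 6.21%, 6.30% and 6.33% in WT with CHIR and 7.02%, 6.26% and 7.25% in WT without. All CdxKO values were above the WT values with CHIR, by a mean of 1.56 points (exact permutation p = 0.1, adjusted over 4 tests p = 0.133, n = 3 each), and against all 6 others by 1.06 points (exact permutation p = 0.0357, adjusted p = 0.133, n = 3 and 6), with 1 T/BraKO library above the lowest CdxKO one. In LEF1 lists the means were 6.28% in CdxKO and 6.09% in WT, a difference of 0.181 points (exact permutation p = 0.2, n = 3 each). β-catenin lists, whose contrast chose the regions, stood at 8.41% to 8.83% in CdxKO, 7.91% to 8.62% in T/BraKO and 6.60% to 7.26% in WT, given with no test.

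**Figure D5:**
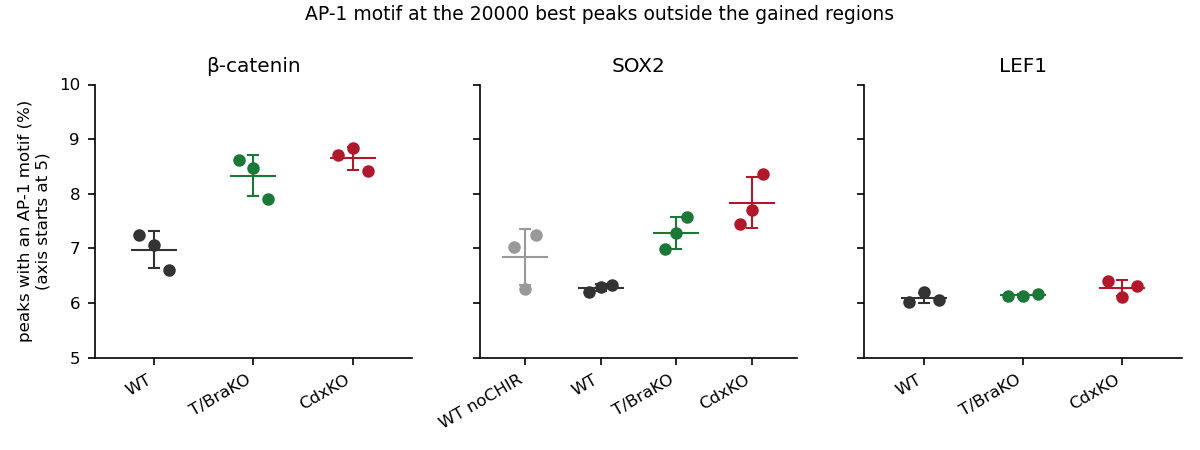
Percent of the 20000 best peaks with an AP-1 motif within 100 bp of the summit (y axis, starting at 5%), peaks at gained regions left out, in each library (dots) with the mean and SD of 3 (bars), by factor and genotype (x axis; all with CHIR except WT noCHIR). In SOX2 lists the 3 CdxKO libraries lie at 7.44% to 8.36% and the 3 WT libraries with CHIR at 6.21% to 6.33%.

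By position the gained regions were mostly distal. Of the 240, 152 (63.3%) had an intergenic summit, 82 (34.2%) an intronic and 6 (2.5%) an exonic one, and 25 (10.4%, 7.16% to 14.9%) lay within 1000 bp of any annotated transcription start, against 12.7% of lost regions and 11.7% of regions called in all 6. The median distance to the nearest protein-coding start was 44915 bp, against 40837 bp and 33089 bp. Their median width was 414.5 bp, less than the 564 bp of lost and 804 bp of shared regions, which gives a peak of another list less room to overlap. SOX2 shares from windows of 201 bp at the gained summits differed by 16.7 points between CdxKO and WT. Both genotypes were compared there at the same regions. Shares in such windows at lost or shared regions were not computed, so the effect of the width difference between sets was not tested. The median GC content was 48.3%, and 35 windows (14.6%) were masked as repeats over at least 50% of their length, against 17.2% of the regions called in all 6. The regions lay on all autosomes and X, from 5 on chromosomes 15 and 17 to 21 on chromosome 1.

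The 240 gained regions had 239 different nearest genes. Of the 9 gene lists examined, 245 entries in all, 9 gained regions (3.75%) had a nearest gene on a list, against 4.25% of all merged regions, 9.81% of the lost and 6.87% of the regions called in all 6. No gained region was nearest to a gene of the WNT pathway and feedback list (34 genes), the caudal epiblast and paraxial mesoderm list (28), the mesendoderm list (20) or the epiblast pluripotency list (17). These lists took 0.602%, 0.511%, 0.275% and 0.256% of all merged regions, so that few of 240 regions would fall to any of them at that rate, and the counts of 0 are not read as a difference.

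The regulators among the 9 were Nanog, Neurog2 and Hoxb6, each with a region close to its start. Nanog, the homeobox gene of naive pluripotency, had a region 3662 bp upstream (chr6:122703716-122704125) with β-catenin folds of 7.04, 4.57 and 8.71 in CdxKO and 6.76, 5.76 and 4.50 in T/BraKO, and a WT peak of 4.65 in replicate 1 at rank 20367, just past the cut. LEF1 was called there in 1 of 3 CdxKO, 2 of 3 T/BraKO and 0 of 3 WT lists, and SOX2 in none of the 12 SOX2 lists. The 101 bp around the summit (chr6:122703777-122703877, plus strand, GRCm38) show 2 TCF/LEF matches in capitals, 1 on each strand:
Nanog: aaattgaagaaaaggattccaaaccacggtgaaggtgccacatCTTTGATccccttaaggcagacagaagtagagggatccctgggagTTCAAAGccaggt
Neurog2, a proneural bHLH factor gene, had a region 461 bp upstream (chr3:127632198-127632912) with folds of 6.11, 6.46 and 7.0 in CdxKO, 5.67 and 5.53 in T/BraKO and 4.49 and 4.71 in WT. SOX2 was called there in 3 of 3 CdxKO, 3 of 3 WT and 2 of 3 lists each of T/BraKO and noCHIR. Hoxb6, a trunk Hox gene, had a region 537 bp upstream (chr11:96291530-96292068) with folds of 4.98, 5.24 and 6.52 in CdxKO, 7.18, 3.32 and 4.75 in T/BraKO and 4.49 in the 1 WT list with a peak. At these 3 genes the CdxKO folds lay between 4.57 and 8.71, and WT cells had a peak below the cut in 1 or 2 lists each.

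The other 6 were signalling and neuronal genes, all at least 61063 bp away. Id2, an inhibitor of bHLH factors downstream of BMP, and Dusp6, a phosphatase that restrains ERK downstream of FGF, had regions 378514 bp and 61063 bp upstream, each with an AP-1 motif and no SOX2 call in CdxKO. Their CdxKO folds were 9.17, 7.66 and 7.88 for Id2 and 8.43, 5.84 and 7.47 for Dusp6. In WT replicates 1 and 3 the folds were 3.49 and 6.18 for Id2 and 4.33 and 5.13 for Dusp6. The neuronal genes were Kcnma1, given above, Nrxn3 and Cntnap2, which encode synaptic adhesion proteins, and Grik1, a kainate receptor subunit gene. The Nrxn3 region (chr12:89086663-89086907) had folds of 9.20, 5.45 and 10.8 in CdxKO and no peak in any other full β-catenin list. The Grik1 region (chr16:88381322-88382179) was called in 3 of 3 T/BraKO β-catenin lists and in 3 of 3 noCHIR, 2 of 3 CdxKO, 2 of 3 T/BraKO and 0 of 3 WT SOX2 lists with CHIR. Its β-catenin folds were 6.11, 9.53 and 6.77 in CdxKO and 4.27 and 6.66 in WT replicates 2 and 3. Cntnap2 had folds of 5.68, 8.62 and 8.56 in CdxKO and a WT peak of 7.01 in replicate 3.

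The remaining best-ranked regions were nearest Gm28269, Ankk1, Gm21886, Gucy1a2 and Gm4985. Gucy1a2, which encodes a subunit of the nitric oxide receptor guanylate cyclase, had an intronic region (chr9:3872033-3872358) with folds of 9.60, 21.4 and 8.71 in CdxKO and peaks in all 3 full WT lists, at 4.72, 3.99 and 7.45. SOX2 was called there in 3 of 3 CdxKO, 3 of 3 T/BraKO and 2 of 3 WT lists. The Ankk1 region, in an intron of Ttc12 beside this kinase gene, had folds of 9.59, 10.3 and 14.9 in CdxKO, 1 T/BraKO peak at 7.37 and no WT peak. The regions nearest Gm28269 and Gm4985 had folds of 12.2, 17.2 and 16.6 and of 10.5, 9.05 and 13.7 in CdxKO, with a WT peak of 4.86 and of 5.65 in replicate 2. For Gm21886 they were 7.59, 7.89 and 17.4, with a WT peak of 2.85 in replicate 3.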

How the data were processed

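The authors aligned single-end ChIP-seq reads to mm10 and called narrow peaks with MACS2, one list per library. In the 30 deposited lists (26940 to 1008922 peaks each), the authors' values are the fold enrichment over control (a ratio), the −log10 p-value and −log10 q-value, a browser score and the summit offset, used here as the peak centre. Read totals were not used here, so depth is not known beyond the peak numbers. The 12 input libraries were not analysed here.

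Peaks on chromosomes 1 to 19, X and Y were ordered on the q-value, with ties broken by the p-value and the fold. The 20000 best of each list had −log10 q values down to 3.26 to 14.1. A region was called by a list that overlapped it by at least 1 bp. Shares of gained regions called were compared over libraries with two-sided exact permutation tests, adjusted by the Benjamini-Hochberg method over 7 tests (4 for AP-1 in lists), since peak lists hold no counts for a count-based test. Nearest genes used GENCODE M21 protein-coding transcripts, and sequence came from GRCm38.p6 (RefSeq), the build of mm10. Python 3.11.15, pandas 2.3.3, scipy 1.17.1 and pysam 0.24.0 were used, and the steps were tested on simulated data. Alternatives were 10000 best peaks, full lists, stricter overlap, other scales and each library left out.

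Named genes were those nearest the 10 best regions by mean CdxKO rank, those on 9 gene lists (at most 4 a list), the 5 best regions for each of 4 call patterns (SOX2 in CdxKO and not WT, LEF1 in CdxKO, T/BraKO 3 of 3 and 0 of 3), and genes nearest 2 or more regions. A region that the rule names is not reported here. The regions, gene lists and tests were chosen with earlier results of these data known.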

Additional observations from a re-analysis of the deposited data

How the results depend on the processing

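The number of gained regions was 174 from the 10000 best peaks, of which 74 overlapped the 240, and 319 from the full lists, of which 40 did, so the identity of the regions depends on the cut. With 1 β-catenin library left out the rule asks less and the number grew, to 559, 702 and 742 without CdxKO replicates 1, 2 and 3 and to 493, 428 and 353 without WT replicates 1, 2 and 3. Over all results, 134 alternatives were counted as the same and 12 as moved. For tests, the same meant the direction and the side of 0.05. No adjusted p was below 0.05 in any setting, so these labels record direction alone. They include the SOX2 difference, CdxKO minus WT, of 0.801 points with the share at regions called in all 6 lists subtracted. For shares it meant a shift within the error. For the number of gained regions it meant a fixed factor around 240, whichever regions they were. Another 5 turned the direction: in full lists T/BraKO minus WT SOX2 was -4.31 points and WT CHIR minus noCHIR 5.69, with the share at regions called in all 6 lists subtracted the LEF1 differences were -3.21 (CdxKO minus WT) and -6.81 (CdxKO minus the others), and without T/BraKO LEF1 replicate 3 the T/BraKO minus WT difference was -0.972. With 1 library left out the differences ranged, in points, from 15.1 to 19.7 (SOX2, CdxKO minus WT), 7.99 to 12.6 (T/BraKO minus WT), -10.1 to -5.49 (CHIR minus noCHIR), 10.3 to 13.5 (CdxKO minus others), and for LEF1 from 4.65 to 6.74, -0.972 to 2.15 and 4.31 to 6.39. The adjusted p for SOX2 in CdxKO minus the others ranged from 0.0833 to 1. The T/BraKO β-catenin share moved to 30.7% and 66.1% with 10000 and full lists, the promoter share to 15.4% within 2000 bp, and within 50 bp of the summit TCF/LEF fell to 29.2%, SOX to 10.0% and AP-1 to 15.8%. The log2 ratio scale and the summit window were added after the data were seen. AP-1 stood at 20.1% in the gained regions of the 10000 best peaks. Same-numbered libraries did not deviate together (correlations of deviations from group means -0.0351 to 0.0692 over 15 pairs), so the numbers were not taken to pair them. With the replicate number as a block, the CdxKO minus WT difference in SOX2 was 16.8 points with p = 0.25 in an exact sign-flip test. That is the smallest p that 3 pairs allow, and no test passed without the block, so the block could not change a call. The causes of these shifts were not tested, and the depth of the libraries, not known here, limits which WT peaks reach a list.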
